A study of Mus musculus with 6 samples.

Results

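Fbn1, Loxl1, Aebp1, Prelp and Tnxb encode secreted proteins that build, cross-link or bind elastic fibres and collagen fibrils. These 5 genes were picked by name, with earlier results of these data known, from a deposited table of 466 genes, a selection of the authors for a difference between microglia with and without Piezo1, a mechanically gated cation channel. All 466 genes had an unadjusted p-value of the authors of at most 0.0499 and an absolute log2 fold change of at least 1.00. The difference between the groups therefore chose the 5 genes, and it is described below and not tested.

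Poly(A) RNA was sequenced from microglia, the brain's own macrophages, of adult male 5×FAD mice on the C57BL/6N strain, a transgenic line that carries mutant human amyloid precursor protein and presenilin genes. The knockout group (Piezo1MGKO; FAD, n = 3) carried floxed Piezo1 together with Cx3cr1CreER-EYFP, a tamoxifen-inducible Cre at the locus of the fractalkine receptor gene Cx3cr1. The control group (Piezo1fl/fl; FAD, n = 3) consisted of littermates with the same floxed gene and the same 5×FAD background, for which no Cre allele was named. Both groups received tamoxifen by intraperitoneal injection at 20 mg/kg on 4 days, from an age of 4.5 weeks. The samples of both groups were labelled as biological repetitions. The age at isolation and the number of mice in each sample were not stated. Any p-value therefore measures only the spread between these samples, and how much of it lies between mice is not known. Cx3cr1 is active in brain macrophages in general, and loss of Piezo1 cannot be told apart from presence of the Cre allele in this design.

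Elastic fibres consist of an elastin core on a scaffold of microfibrils. Fibrillin-1, the product of Fbn1, is the main microfibril protein and also tethers latent TGF-beta complexes; Loxl1 encodes a copper-dependent amine oxidase of the lysyl oxidase family that cross-links elastin. Aebp1 encodes a secreted collagen-binding protein also known as aortic carboxypeptidase-like protein, Tnxb encodes tenascin-X, which organises collagen fibrils, and Prelp encodes a small leucine-rich proteoglycan that links basement membranes to collagen. In the brain such matrix is found mainly in the meninges and around larger vessels, where fibroblasts and mural cells make it.

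The 5 genes lie on 5 chromosomes (GRCm38, coordinates of the deposited table, identical in GENCODE). Fbn1 (ENSMUSG00000027204) spans chr2:125300594-125507993 on the minus strand, Loxl1 (ENSMUSG00000032334) chr9:58287738-58313186 on the minus strand and Aebp1 (ENSMUSG00000020473) chr11:5861947-5872088 on the plus strand. Prelp (ENSMUSG00000041577) spans chr1:133910304-133921414 on the minus strand and Tnxb (ENSMUSG00000033327) chr17:34670535-34719815 on the plus strand. No annotated gene overlaps Loxl1 or Aebp1. Fbn1 overlaps Gm9913 on the other strand over 2793 bases, Prelp overlaps the antisense gene Gm15851 over 4519 bases, and Tnxb overlaps the snRNA gene Gm24389 over 107 bases and the pseudogene Cyp21a2-ps over 3 bases, both on the other strand. No source used here states whether counting was by strand, so reads in these overlaps cannot be assigned to 1 of the genes.

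RefSeq (GRCm38.p6) gave a start window for 4 of the 5 genes. That of Fbn1 lies within annotated exons over all of its 250 bases. The other windows, each the 250 bases before a RefSeq start on the strand of the gene, are shown because they are the proximal sequence of genes that were low in the same samples. Capitals mark matches on either strand to GGGAGGG, the core bound by the zinc finger factor MAZ, and to the AP-1 element TGANTCA.
Aebp1, chr11:5861616-5861865, plus strand: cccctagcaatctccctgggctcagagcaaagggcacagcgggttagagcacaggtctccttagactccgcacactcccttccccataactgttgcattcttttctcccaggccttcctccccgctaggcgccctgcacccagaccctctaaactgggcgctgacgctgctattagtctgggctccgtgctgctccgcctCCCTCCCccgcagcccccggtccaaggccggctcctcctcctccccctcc
Prelp, chr1:133921402-133921651, minus strand: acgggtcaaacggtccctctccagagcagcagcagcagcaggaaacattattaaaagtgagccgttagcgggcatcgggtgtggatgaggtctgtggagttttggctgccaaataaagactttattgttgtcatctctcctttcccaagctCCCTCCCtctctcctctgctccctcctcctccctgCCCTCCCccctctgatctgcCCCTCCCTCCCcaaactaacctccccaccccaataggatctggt
Tnxb, chr17:34670285-34670534, plus strand: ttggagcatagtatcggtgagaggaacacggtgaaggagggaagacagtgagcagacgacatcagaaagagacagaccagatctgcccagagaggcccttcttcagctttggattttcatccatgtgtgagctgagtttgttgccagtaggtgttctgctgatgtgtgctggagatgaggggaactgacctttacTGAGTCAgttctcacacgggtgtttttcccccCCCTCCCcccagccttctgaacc

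The GGGAGGG letters, searched after the sequences had been seen, occur in all 3 windows and in 19.7% of 32851 RefSeq start windows of that length. In Prelp they begin 99, 64, 44 and 40 bases before the start, the last 2 overlapping, in Aebp1 50 bases and in Tnxb 23 bases before it. TGANTCA occurs in the Tnxb window alone, 55 bases before the start, and in 6.75% of all windows. The TATA box letters TATAAA (12.4% of all windows), the GC box GGGCGG (32.7%) and the TEAD core GGAATG (12.6%) are in none of the 3. RefSeq extends the spans of Prelp and Tnxb further upstream, to 133930102 and from 34660453, so each of these windows precedes only 1 of several possible starts. These matches describe letters only, and no factor was measured.

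The level of each gene is given as normalised reads, the read count divided by a size factor of the sample. All 5 genes were scarce in the knockout samples and present in every control, with control 3 highest and control 1 lowest for each of them. A lower level in a bulk sample can come from fewer cells of a type or from less RNA per cell, and these cannot be told apart here.

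For Fbn1, the microfibril gene, controls 1, 2 and 3 held 3.92, 25.2 and 191 normalised reads, and knockouts 1, 2 and 3 held 1.97, 1.02 and 2.02. The knockout samples lay together near 1 or 2 reads, control 1 was close above them, and the groups did not overlap. The group means were 73.3 ± 102 and 1.67 ± 0.563 (SD, n = 3 each), a ratio of 43.9, which was 8.72 without control 3. The difference between knockout and control in mean log2(normalised reads + 1) was -3.47, and -0.91 when control 1 was the only control kept.

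For Loxl1, the elastin cross-linking gene, controls 1, 2 and 3 held 10.8, 16.5 and 158 normalised reads. In the knockout libraries it had 0, 0 and 1.01, which is 1 read in knockout 3 and none in the others. Controls 1 and 2 were close to each other, control 3 was far above both, and the groups did not overlap. With 1 read over the knockout libraries against 189 over the controls, the ratio was 184 with a 95% exact counting interval from 32.6 to 7291. Without control 3, which held 161 of the 189 control reads, the ratio was 40.8 (6.74 to 1667), a value added after the data were examined. These intervals cover counting error only and hold none of the spread between samples. The difference in mean log2(normalised reads + 1) was -4.66 with all samples and -3.51 without control 3.

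**Figure D1:**
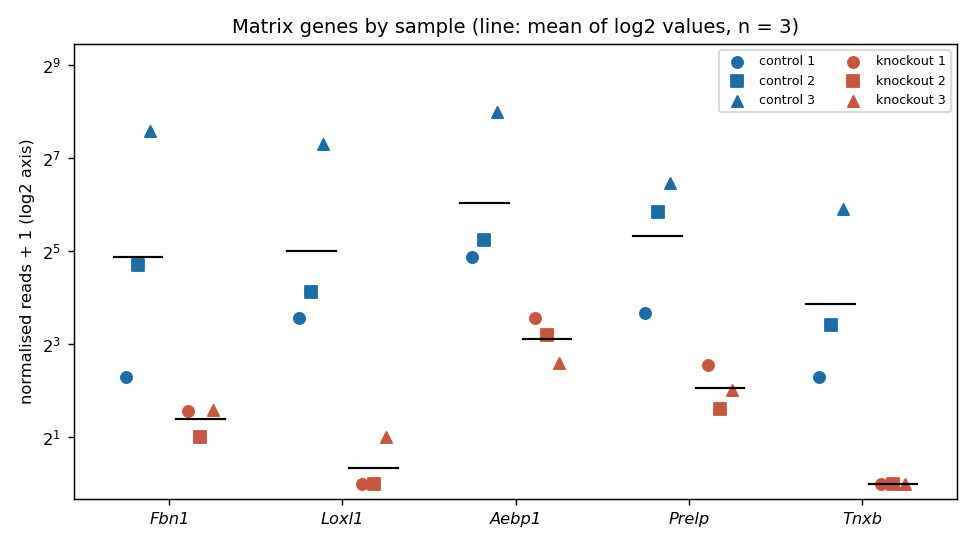
Normalised reads + 1 on a log2 axis for Fbn1, Loxl1, Aebp1, Prelp and Tnxb, with 1 point per sample (blue, controls; red, knockouts; circle, square and triangle, replicates 1, 2 and 3) and a line at the mean of the log2 values of each group (n = 3). Every control lies above every knockout sample of the same gene, and control 3 is the highest sample throughout, from 58.7 normalised reads for Tnxb to 254 for Aebp1.

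Aebp1, the collagen-binding gene, had the highest mean level per kilobase of the 5 in both groups. Controls 1, 2 and 3 held 28.5, 36.9 and 254 normalised reads of it, and knockouts 1, 2 and 3 held 10.8, 8.17 and 5.06. Controls 1 and 2 again lay close together below control 3, and the lowest control was 2.63 times the highest knockout. Group means were 107 ± 128 and 8.01 ± 2.88 (SD, n = 3 each), a ratio of 13.3 that was 4.07 without control 3.

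The proteoglycan gene Prelp stood at 11.8, 56.3 and 87.1 normalised reads across controls 1, 2 and 3, against 4.92, 2.04 and 3.04 across knockouts 1, 2 and 3. Here control 2 stood near control 3, and control 1 was the low one. Group means were 51.7 ± 37.9 and 3.33 ± 1.46 (SD, n = 3 each), a ratio of 15.5, or 10.2 without control 3.

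The tenascin-X gene Tnxb stood at 3.92, 9.70 and 58.7 normalised reads across controls 1, 2 and 3, while no knockout library held a read. Its control mean was 24.1 ± 30.1 (SD, n = 3). Against a floor of 3 reads in each knockout library it was at least 7.99-fold lower in the knockout, a bound that fell to 2.26-fold without control 3. Absence of reads was not particular to Tnxb, since 70 of the 410 genes listed as lower had none in any knockout library.

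Per kilobase of the gene length given in the deposited table, Aebp1 had the highest mean level in controls, at 26.3 normalised reads per kb, followed by Loxl1 at 18.7, Prelp at 14.3, Fbn1 at 6.05 and Tnxb at 1.97. The spread over the 3 controls was larger than the gap between neighbours in this order. Within single samples the order changed: in control 2 Prelp was highest at 15.6 normalised reads per kb against 9.08 for Aebp1, and in control 3 Aebp1 was highest at 62.7, with Loxl1 at 47.8. In the knockout group Aebp1 had 1.97 and Prelp 0.921 normalised reads per kb, and Fbn1 and Loxl1 had 0.138 and 0.102. Aebp1 and Prelp were thus the 2 genes of the 5 with at least 2 reads in every knockout library.

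The rule that picked the 5 genes did not name the spread among the controls, though earlier results had shown it for Fbn1 and Tnxb. A p-value between groups depends on that spread, and the authors' p-value selected the genes listed. The shares that follow are therefore description only. Control 3 held 86.8% of the summed control level of Fbn1, 85.2% of that of Loxl1, 81.2% of that of Tnxb, 79.6% of that of Aebp1 and 56.1% of that of Prelp. The median of the 5 was 81.2%, against 44.2% over the 410 listed genes that were lower in the knockout. All 5 genes had their highest value in control 3, as did 54.6% of those 410, and all 5 had control 1 lowest and control 2 between the others, an order found in 38.5% of the 410.

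Prelp stood apart from the others in the ratio of control 3 to control 2. Its ratio between those libraries was 1.55 (95% exact counting interval 1.10 to 2.19). For Fbn1 it was 7.57 (5.01 to 11.9), for Loxl1 9.55 (5.78 to 16.8), for Aebp1 6.90 (4.90 to 9.98) and for Tnxb 6.05 (3.07 to 13.3). The Prelp interval overlapped none of these, so the libraries differed in their proportion of Prelp to the other 4 by more than counting error. The ratio of control 2 to control 1 was 6.43 (2.23 to 25.3) for Fbn1 and 4.78 (2.54 to 9.77) for Prelp. For Loxl1 it was 1.53 (0.675 to 3.61), for Aebp1 1.30 (0.778 to 2.18) and for Tnxb 2.47 (0.713 to 10.8), and these 3 intervals include 1. These intervals compare single libraries and not conditions. Over 390 lower genes with reads in control 2, the median ratio of control 3 to control 2 was 1.13.

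**Figure D2:**
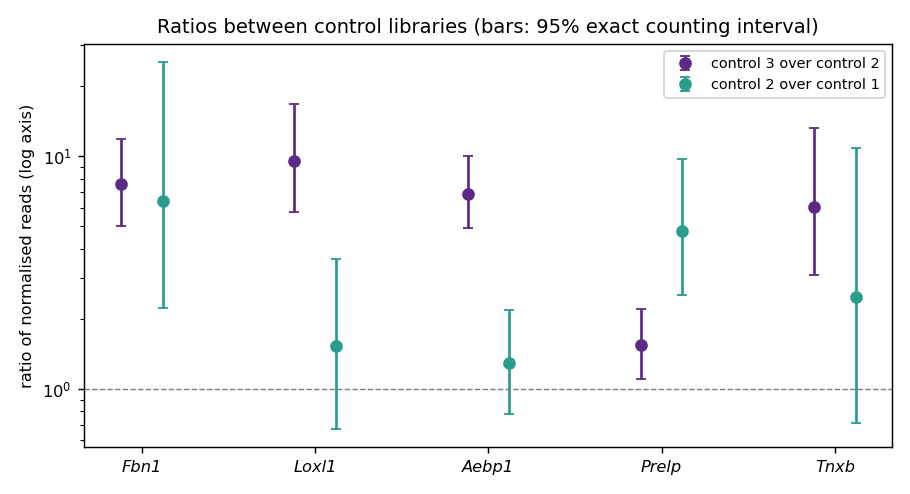
Ratio of normalised reads between pairs of control libraries on a log axis for the 5 genes (purple, control 3 over control 2; green, control 2 over control 1; bars, 95% exact counting interval; dashed line, equal levels). For Prelp the ratio of control 2 to control 1 (4.78) is the larger one, while for Loxl1 and Aebp1 it is 1.53 and 1.30 beside ratios of control 3 to control 2 of 9.55 and 6.90.

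In the authors' deposited table, Aebp1, Fbn1, Prelp and Tnxb had adjusted p-values of 0.00339, 0.00378, 0.00501 and 0.0209, and Loxl1 one of 0.0882. The authors' deposited table gives log2 fold changes of -3.73, -5.45, -3.95, -7.03 and -7.42 in that order. Of the 5 genes, 4 were thus under 0.05, where 3.00% of the 466 listed genes were. Among the 5, the 2 steepest of these fold changes in the authors' deposited table belong to genes with 0 and 1 knockout reads. The groups did not overlap for any of the 5 genes, as for 45.3% of the listed genes in the lower direction. A fit with limma on log2(normalised reads + 1), adjusted over the 466 genes, called 0 genes (0%), with 245 at an unadjusted p under 0.05. On reads recovered from the table, edgeR and DESeq2 called 0 and 49 (10.5%). The authors' adjusted p-values imply an adjustment over 19107 genes. The fits here used only the 466, already chosen by p-value. Their counts therefore cannot be compared with the authors' 3.00% and control no false discovery rate. The limma count was 196 without control 1 and 36 without control 3, so it depends on the controls that enter. Because the contrast chose the 5 genes, these counts say nothing further about them.

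The median difference of the 5 genes in mean log2(normalised reads + 1) was -3.47, beside -1.99 over all 466 genes. It was -4.66 without control 1, -3.55 without control 2, -2.70 without control 3 and -1.76 without controls 2 and 3 together. With control 1 as the only control, Loxl1 kept a difference of -3.22 and Tnxb one of -2.30, and Prelp had -1.61.

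**Figure D3:**
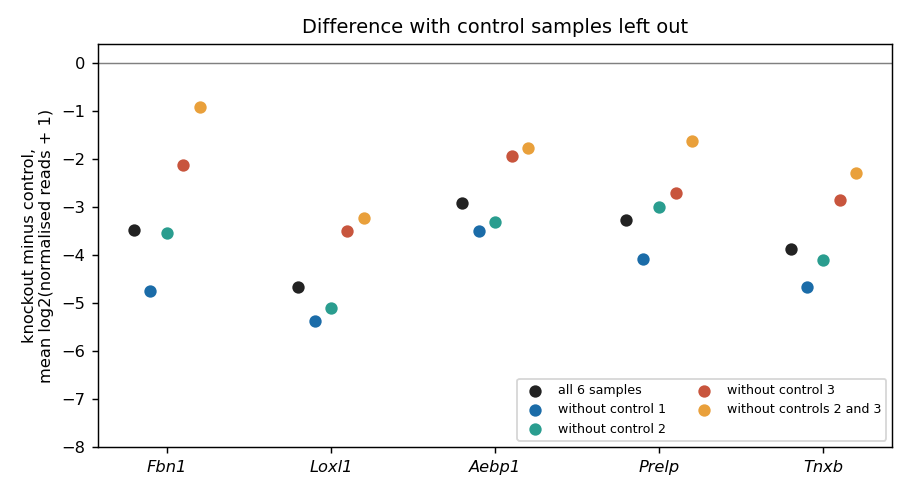
Difference between knockout and control in mean log2(normalised reads + 1) for the 5 genes with all 6 samples (black) and with control samples left out (colours). Every value is below 0; Fbn1 moves most, from -3.47 to -0.91 when controls 2 and 3 are both left out.

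Other genes of the same matrix were counted in lists drawn up with earlier results of these data known. Of 34 elastic fibre and microfibril genes, 4 were in the table and all 4 were lower, namely Fbn1, Loxl1, Fbln5 and Mfap5; 88.0% of all listed genes were lower. Fbln5, which encodes fibulin-5, an elastin-binding protein of elastic fibre assembly, stood at 6.87, 14.5 and 159 normalised reads across controls 1, 2 and 3, against 0.983, 3.06 and 0 across the knockouts. Its controls lay as those of Loxl1 did, with 1 sample far above the others, and the groups did not overlap. Mfap5, a microfibril-associated glycoprotein gene, had 22.5 normalised reads in control 3 and none in any other sample, so its listing rests on 1 library. The median difference of the 4 genes in mean log2(normalised reads + 1) was -3.61. By the adjusted p of the authors' deposited table, Fbn1 alone among them was under 0.05. The other 30, elastin itself among them, were not analysed here.

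Of 18 small leucine-rich proteoglycan genes, 5 were in the table, all lower: Prelp, Ogn, Fmod, Podn and Tsku. Ogn, the osteoglycin gene, stood at 2.94, 11.6 and 23.5 normalised reads across controls 1, 2 and 3, against 0, 0 and 1.01 across the knockouts, with no overlap. Fmod, which encodes the collagen-binding fibromodulin, stood at 3.92, 0.970 and 19.6 normalised reads across the controls, against 0.983, 0 and 0 across the knockouts, and its groups overlapped. Fmod was the listed gene nearest to Prelp, 116 kb away on chromosome 1. Podn, the podocan gene, stood at 0.981, 7.76 and 26.4 normalised reads across the controls, against 0, 3.06 and 0 across the knockouts, also with overlap. Tsku, the tsukushi gene, was nearly level in the knockouts, at 3.02 ± 0.0595 normalised reads, while the controls averaged 12.4 ± 9.10 (SD, n = 3 each). All 5 were highest in control 3, and the median difference in mean log2(normalised reads + 1) was -2.29. By the same measure of the authors' deposited table, Prelp alone was under 0.05.

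Of 33 tenascin, fibrillar collagen and collagen-processing genes, 4 were in the table, all lower: Tnxb, Aebp1, Col11a1 and Pcolce. Pcolce, whose product enhances procollagen C-proteinase, stood at 78.5, 158 and 496 normalised reads across controls 1, 2 and 3, against 72.7, 94.97 and 72.8 across the knockouts. Control 1 lay within the knockout range, so the groups overlapped. Col11a1, a minor fibrillar collagen chain gene, stood at 1.96, 19.4 and 33.3 normalised reads across the controls, against 0, 3.06 and 1.01 across the knockouts, also with overlap. The median difference of the 4 genes in mean log2(normalised reads + 1) was -2.79, and the authors' deposited table puts the adjusted p of Tnxb and Aebp1 under 0.05.

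Of 22 genes of latent TGF-beta and its receptors, which act on the growth factor that fibrillin microfibrils hold, 2 were in the table. Tgfbr3, the co-receptor betaglycan, stood at 8.83, 73.7 and 49.9 normalised reads across controls 1, 2 and 3, against 4.92, 1.02 and 2.02 across the knockouts, with no overlap. The authors' deposited table gives it an adjusted p of 0.0170. Unlike the 5 genes it was highest in control 2, and its ratio of control 3 to control 2 was 0.677 (95% exact counting interval 0.465 to 0.978). Tgfb3, a TGF-beta ligand gene, stood at 2.94, 2.91 and 6.85 normalised reads across the controls, and no knockout library held a read.

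**Figure D4:**
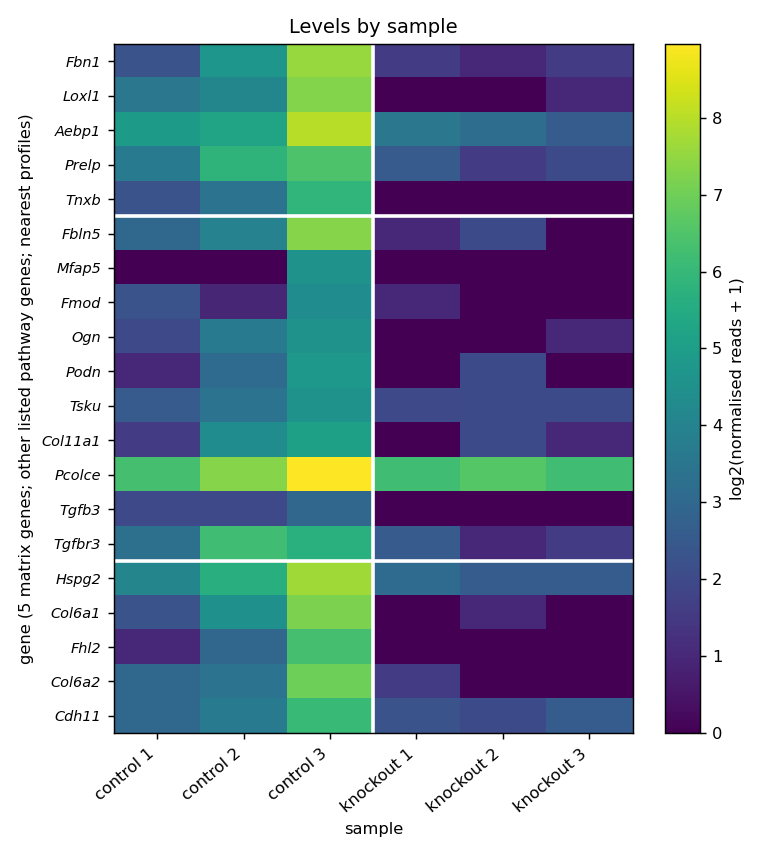
Heat map of log2(normalised reads + 1) by sample for the 5 genes (top block), the other listed genes of the matrix and TGF-beta lists (middle block) and the 5 listed genes with the most similar profile (bottom block); brighter means higher. Control 3 is the brightest column for every gene except Tgfbr3, which had 73.7 normalised reads in control 2 and 49.9 in control 3.

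Profiles were compared by Pearson's r over the 6 samples between log2(normalised reads + 1) of each gene and the mean standardised profile of the 5. The nearest of 231 other listed genes with a mean of at least 10 were Hspg2 (r = 0.995), Col6a1 (0.981), Fhl2 (0.978), Col6a2 (0.975) and Cdh11 (0.963). Hspg2 encodes the basement membrane proteoglycan perlecan, Col6a1 and Col6a2 encode chains of collagen VI, Fhl2 encodes a LIM domain protein and Cdh11 a cadherin of mesenchymal cells. The mean was taken over all 6 samples, so a gene could pass through the controls alone. Fhl2 did so, with no read in any knockout library. All listed genes were selected for the same group difference in the same 6 samples, and the median r over the 231 was 0.740. The r of pairs among the 5 genes ranged from 0.917 for Aebp1 and Prelp to 0.988 for Loxl1 and Tnxb. Col6a1 stood at 3.92, 21.3 and 147 normalised reads across controls 1, 2 and 3, against 0, 1.02 and 0 across the knockouts.

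Markers of cell types that can lie beside microglia were also among the listed genes. Of 22 fibroblast and meningeal markers, Ogn, Fmod, Apod, Ptgds and Igfbp2 were in the table, all lower, and their summed level ranged from 122 to 558 normalised reads over the controls and from 21.2 to 67.8 over the knockouts. In controls 1 and 2 most of that sum came from Igfbp2, at 77.5, 364 and 29.4 normalised reads for controls 1, 2 and 3, and Ptgds, at 36.3, 176 and 31.3, both highest in control 2. Ogn, Fmod and Apod were highest in control 3, as the 5 genes were, with Apod at 0.981, 5.82 and 30.3 and the other two at the values given above. Ogn had no read in knockouts 1 and 2, Fmod none in knockouts 2 and 3 and Apod none in knockouts 1 and 3. The defining fibroblast markers Col1a1, Col1a2, Dcn, Lum and Pdgfra were not analysed here. Of 16 mural markers, Acta2 and Myl9 were in the table. Their sums were 27.5, 24.2 and 255 normalised reads for controls 1, 2 and 3 and 5.11 to 26.3 for the knockouts. Most of each sum came from Acta2, at 189 in control 3. Of 17 choroid plexus and ependymal markers 9 were in the table, all highest in control 2. Their sums were 3513, 19382 and 367 for controls 1, 2 and 3 and 595 to 2054 for the knockouts. Most of each sum came from Ttr, at 3369, 18571 and 265 for controls 1, 2 and 3. Of 16 neuron markers 7 were in the table, 6 of them highest in control 3. Their sums were 75.5, 177 and 796 for controls 1, 2 and 3 and 12.1 to 68.4 for the knockouts. In control 3 most of the sum came from Thy1, at 542. The summed level of the 5 matrix genes was 58.9, 145 and 749 for controls 1, 2 and 3 and 11.1 to 17.7 for the knockouts. Of 7 erythroid markers, Hba-a1 and Hbb-bs were in the table, both lower. Their sums were 28.5, 176 and 268 for controls 1, 2 and 3 and 0, 28.6 and 3.04 for knockouts 1, 2 and 3. Hba-a1 was highest in control 3 and Hbb-bs in control 2. Astrocyte (2 of 12), endothelial (1 of 15) and border macrophage (2 of 12) markers were few, all lower except 1 of the border macrophage genes. Of 12 oligodendrocyte markers, 0 were listed. The part of any of these cell types in the levels of the 5 genes was not tested.

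Of 14 microglia markers, Cx3cr1 alone was in the table, with 58569 to 79363 normalised reads per control and 27906 to 35698 per knockout. The Cre allele of the knockout group lies at the Cx3cr1 locus, so this level is no measure of microglia alone. The part of that allele in the lower level was not tested. The other microglia markers were not analysed here. The level of Piezo1 was not analysed here either, so it does not check the genotype labels. Library depth is unknown. Reads recovered over the 466 genes ranged from 49643 to 180760, and those of the 5 genes together came to 60, 149 and 765 for controls 1, 2 and 3 and to 18, 11 and 11 for knockouts 1, 2 and 3.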

How the data were processed

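The build GRCm38 and the tools HISAT2, RSEM 1.2.30, cutadapt 1.11, R 3.6.1 and DESeq2 appear in the submitters' processing notes, with no role. The values are normalised read counts (a signal that is never negative) that the authors computed and deposited. Within a sample, 100% of them were whole multiples of its smallest value above 0 (tolerance 1e-06), and the implied size factors ran from 0.979 to 1.03. The authors also deposited a log2 fold change, a p-value and its adjusted form, by a test that the file headers do not state. DESeq2 on recovered reads gave the same rounded fold changes, -3.73 for Aebp1, -5.45 for Fbn1, -3.95 for Prelp, -7.03 for Tnxb and -7.42 for Loxl1. For the fold changes it is therefore no separate check.

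All 466 genes entered a limma 3.58.1 fit (R 4.3.3, trended variance) of log2(value + 1), adjusted by Benjamini-Hochberg at a threshold of 0.05. Recovered reads were also tested with edgeR 4.0.16 and DESeq2 1.42.0. All 3 were also run on simulated reads with the same dispersion for every gene and changes in both directions. The listed genes were selected by p-value and mostly lower, so that run does not show how the tools perform on them. Ratios of reads have 95% exact conditional binomial intervals. The 5 genes, lists and alternatives were chosen with earlier results of these data known. Genes named were the 5, every table gene of the pathway lists, and the 5 nearest profiles. Start windows are from RefSeq (GRCm38.p6).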

Additional observations from a re-analysis of the deposited data

How the results depend on the processing

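Of 70 values for the 5 genes under 14 other settings, 0 changed direction. That count is no support, because the 5 genes were chosen by this difference and their groups did not overlap. Leaving out samples or changing the pseudocount could therefore not reverse any of them. The number of limma calls over all 466 genes, 0 in the fit reported, was 120 with a pseudocount of 0.5, 0 with 5, 1 among 236 genes with a mean of at least 10, and 54 without controls 2 and 3 together. It was 56 (10 lower, 46 higher) after rescaling each sample by its median ratio over the listed genes with reads in every sample. Loxl1 and Tnxb were not among those genes. The rescaling raised the median log2 difference of all genes by 1.03 and left that of the 5 genes at -2.17. edgeR called 0 and DESeq2 49. Leaving out 1 sample gave from 0 to 196 calls, 196 without control 1 and 36 without control 3. The median of the 5 genes was -5.35 in edgeR and -5.45 in DESeq2. Those tools compare group means of reads and not means of log2 values, so they give another measure. In limma the median was -1.76 without controls 2 and 3 together, and from -4.66 to -2.70 with 1 sample left out. The cause of the differences between left-out samples was not tested. With the replicate number as a block, limma called 4 genes, a count that again covers only genes chosen by this contrast. Deviations of same-numbered samples correlated at -0.04, -0.04 and 0.07, and those of other pairs at -0.19 to 0.27. With so few samples these values show no pairing by number but cannot exclude one. Reads in the knockout libraries, 0 to 11 for each gene, limit the precision of every ratio.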
